A study of Homo sapiens with 8 samples.

Results

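The change in gene expression between day 4 and day 2 of serial electroporation was measured in SEM cells under 3 treatments. SEM is an established human leukaemia line of B-cell precursors with an MLL/AF4 fusion gene. The 6 arrays of day 4 and day 2 were used, out of 8 arrays in the series. On each day there was 1 array of cells given siRNA against the fusion transcript (siMLL/AF4), 1 of cells given control siRNA (siCtrl) and 1 of cells pulsed without siRNA (MOCK). All cells carried the fusion, grew in RPMI-1640 medium with calf serum and glutamine and no antibiotics, and were electroporated. The day 4 cells had been pulsed a second time 2 days before harvest, and the day 2 cells had been pulsed once. Days in culture and number of pulses therefore cannot be told apart. No unpulsed cells were among the 6 arrays, so the effect of the first pulse is in both days.

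Electroporation opens the cell membrane with a brief electric pulse, so that siRNA can enter the cytoplasm. Growing lymphoid cells adjust lipid synthesis, protein turnover and cell cycle genes to the supply of nutrients and sterols. Sterol and fatty acid synthesis are run by the SREBP transcription factors, which are held in the endoplasmic reticulum by INSIG proteins when sterols are plentiful. In MLL/AF4 leukaemia the fusion protein holds transcription high at genes of progenitor cells.

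Each treatment gave 1 pair of arrays, and the 3 pairs share no array. The change that all 3 treatments had in common was tested over the 3 pairs with limma, a linear model that shares information on spread across genes, with treatment as a block. In further fits the change of 1 treatment was set against the changes of the other 2. The p-values measure the spread between these arrays, as nothing in the labels says that the treatments came from separate cultures, and with so few arrays every value has limited precision. For a single gene, 3 pairs cannot give an exact sign-flip p under 0.25, so tests were run over all genes with Benjamini-Hochberg adjustment at 0.05. Levels and changes are on the log2 scale, where a change of 1 is a 2-fold change, and every change is day 4 minus day 2. The deposited values were read as natural logs. Under a reading as base 2 logs, every log2 value below would be 0.693 times as large.

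The tests covered 6054 genes with a value on all 6 arrays and a mean in the upper part of the range. Among B-lineage markers, EBF1, a factor of early B-cell fate, lay between 11.26 and 11.99 on the 6 arrays, CD79A, a part of the B-cell receptor, between 10.55 and 11.90, and VPREB1, of the surrogate light chain, between 10.12 and 11.98. Of 14 B-lineage markers with a probe 7 were bright enough to be tested, and DNTT, MME, RAG1 and CD24 lacked a value on 1 or more arrays. The summed linear level of the B-lineage markers was 18325 to 31424 on day 4 and 16598 to 30745 on day 2. Among markers of other cells, 2 of 11 myeloid genes were tested (CEBPA and CSF1R), 1 of 11 T and NK cell genes (NKG7) and 0 of 8 erythroid and platelet genes. The summed linear level of the myeloid markers was 2638 to 5498 on day 4 and 3632 to 6726 on day 2. Most of it came from CEBPA, which changed by -0.65, -0.88 and -0.44. CD68 was higher on day 4 in every treatment, at 8.27, 7.85 and 7.77 against 6.88, 6.78 and 6.91, as was LYZ, at 7.49, 6.82 and 7.54 against 7.21, 5.83 and 6.42, both dimmer than the level for the test. The summed level of the T and NK cell markers was 666 to 939 on day 4 and 394 to 1002 on day 2. Of the genes joined in the fusion, KMT2A (MLL) was under the level needed for the test. It was at 6.42 (siMLL/AF4), 6.97 (siCtrl) and 6.38 (MOCK) on day 4, against 7.17, 7.66 and 7.11 on day 2 in the same order. Its change was -0.74, -0.68 and -0.73, so the probe did not separate the knock-down from the controls over time. The AFF1 (AF4) probes changed by -1.14 with siMLL/AF4, -0.12 with siCtrl and 0.053 in MOCK at one probe, and by -0.017, -0.83 and -0.75 at the other. Arrays stood closest for the MOCK pair (Spearman correlation across the 6054 genes tested 0.975) and farthest for MOCK on day 4 with siCtrl on day 2 (0.839).

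Among the 16 genes that passed the shared test with all pairs and without any 1 treatment, the largest increases on day 4 were in ZNF682, a zinc finger protein, in MCMDC2, a relative of the replicative helicase that acts in meiotic recombination, and in GNG11, a gamma subunit of heterotrimeric G proteins. The 7 lower genes of these 16 were INSIG1, SCD, LSS and FADS2, which make or control lipids, and CACUL1, a regulator of cullin ligases, SPRY4, an inhibitor of growth factor signalling through ERK, and NUP210, a membrane protein of the nuclear pore. The largest shared fall of all was in NOMO3 (-1.40), which did not pass in every fit that leaves out a treatment and has near-identical copies. With limma, 83 of 6054 genes passed (1.37%), 23 higher (0.38%) and 60 lower (0.991%) on day 4. An unadjusted p under 0.05 was reached by 1418 genes. With limma 0 genes passed without the filter on dim genes (smallest adjusted p = 0.463, 1060 genes at an unadjusted p under 0.05), with missing values set to the lowest value (837 unadjusted) or without the treatment block (475 unadjusted). Without the siMLL/AF4 pair 222 genes passed, and without the MOCK pair 197. Among the 83, 16 also passed in each of the 3 fits that leave out 1 treatment, 9 of them higher and 7 lower, and these are the genes shown in the plot of levels by treatment and day. Such fits reuse the same arrays and are not separate evidence. Without siCtrl or without MOCK the spread was pooled over all genes, so a pass there rested on the size of the mean change and not on even changes. IL27RA is in the set at 1.83, 1.30 and 0.35, and CELF1 is not, at -1.09, -1.05 and -1.03. The groups did not overlap for 20 of the 23 higher genes and 33 of the 60 lower ones. Over all genes tested, the 3 day 4 arrays all lay above the 3 day 2 arrays in 426 genes (7.04%) and all below in 359 (5.93%).

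**Figure D1:**
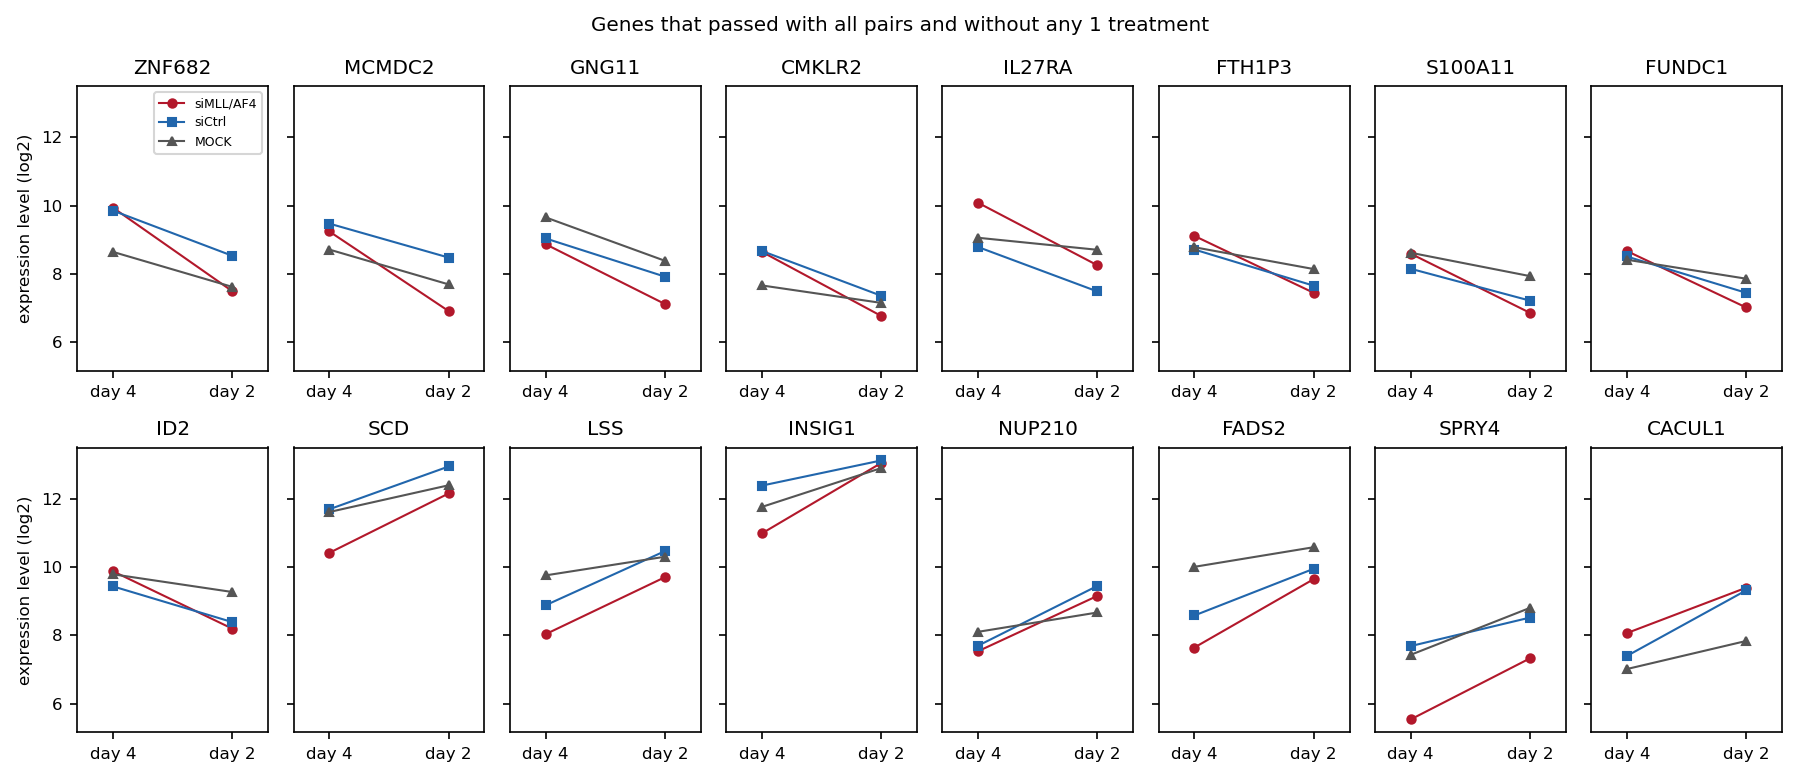
Expression level (log2, vertical axis) on day 4 (left) and day 2 (right) of the 16 genes that passed the shared test with all pairs and without any 1 treatment. Each line is 1 treatment with 1 array a day (siMLL/AF4 red circles, siCtrl blue squares, MOCK grey triangles), and the 9 higher genes slope one way and the 7 lower genes the other in every treatment.

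GNG11 was at 8.87 (siMLL/AF4), 9.04 (siCtrl) and 9.65 (MOCK) on day 4, against 7.12, 7.92 and 8.38 on day 2 in the same order. All day 4 arrays lay above all day 2 arrays, and the change was 1.38 ± 0.22 (SE), a 2.60-fold increase (limma, adjusted p = 0.0224). ZNF682 was at 9.93, 9.85 and 8.64 on day 4, against 7.49, 8.53 and 7.62 on day 2, with a change of 1.60 ± 0.26 (SE, limma, adjusted p = 0.0224). A second ZNF682 probe moved less, by 0.51, 0.43 and 0.051. These 2 genes were the ones at least 2-fold higher in each treatment (0.033% of all genes), and CELF1, an RNA-binding regulator of splicing and decay, was the 1 gene at least 2-fold lower in each (0.0165%). CELF1 changed by -1.09 with siMLL/AF4, -1.05 with siCtrl and -1.03 in MOCK (limma, adjusted p = 0.0323), a spread of 0.030 (SD, n = 3 pairs). A second CELF1 probe changed by -0.17, -1.94 and -0.70.

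CA2, a carbonic anhydrase that handles carbon dioxide and pH, was at 10.54 (siMLL/AF4), 11.44 (siCtrl) and 11.53 (MOCK) on day 4, against 9.62, 10.14 and 10.38 on day 2. Its change was 1.12 ± 0.22 (SE, limma, adjusted p = 0.0259), and its second probe changed by 1.38, 1.56 and 1.67. ID2, an inhibitor of E proteins that drive B-lineage genes, rose by 1.68, 1.05 and 0.52 (limma, adjusted p = 0.0388), and its second probe by 1.72, 1.89 and 1.29. S100A11, a calcium-binding protein of membrane repair, rose by 1.73, 0.93 and 0.68, and CTSO, a lysosomal cysteine protease, by 0.84, 0.84 and 1.17. CCNB1, the cyclin of mitotic entry, was the gene that rose most in MOCK, by 1.86, against 1.11 with siMLL/AF4 and 0.56 with siCtrl. SPSB2, a substrate receptor of ubiquitin ligases, and MT1F, a metallothionein, rose as well, but their groups overlapped. FTH1P3 and CHP1P2 also passed as higher. Both are pseudogenes with near-identical copies, so their probes may read those copies too. Among the other higher genes, picked after their values were seen, were LY96, which pairs with the receptor TLR4, at 2.58 (siMLL/AF4), 0.84 (siCtrl) and 0.53 (MOCK), the cytokine IL18 at 1.86, 1.23 and 0.26, the cytokine IL10 at 1.35, 1.36 and 0.41, and IL27RA, a cytokine receptor subunit, at 1.83, 1.30 and 0.35.

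INSIG1, which holds SREBP in the endoplasmic reticulum and is itself an SREBP target, was at 10.98 (siMLL/AF4), 12.38 (siCtrl) and 11.76 (MOCK) on day 4, against 13.05, 13.12 and 12.90 on day 2. All day 4 arrays lay below all day 2 arrays, and the change was -1.31 ± 0.25 (SE, limma, adjusted p = 0.0259). A second INSIG1 probe changed by -1.52, -0.80 and -0.96. SCD, the desaturase that makes monounsaturated fatty acids, was at 10.42, 11.69 and 11.61 on day 4, against 12.15, 12.94 and 12.39 on day 2, with a change of -1.26 ± 0.23 (SE, limma, adjusted p = 0.0259). LSS, lanosterol synthase, fell by 1.67, 1.58 and 0.55 on the log2 scale, and FADS2, a desaturase of polyunsaturated fatty acids, by 2.00, 1.37 and 0.57. In both genes the siMLL/AF4 and siCtrl arrays of day 4 were the lowest of the 6, and MOCK on day 4 lay among the day 2 arrays.

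Of 13 cholesterol synthesis genes tested, 9 were lower under all 3 treatments and 0 higher, and of 11 fatty acid synthesis genes 8 were lower and 1 higher. Among all genes 23.7% were lower and 23.5% higher under all 3, 47.2% together. The cholesterol list had medians of -0.52 (siMLL/AF4), -0.50 (siCtrl) and -0.44 (MOCK), and the fatty acid list of -1.05, -0.64 and -0.32. The medians of all genes were -0.13, 0.11 and 0.0048. Members short of the threshold were HMGCS1, at the head of the mevalonate pathway, at -0.87, -0.83 and -0.70 (limma, adjusted p = 0.0627), SQLE, squalene epoxidase, at -0.89, -0.72 and -0.50, FASN, fatty acid synthase, at -1.85, -1.11 and -0.15, and SREBF1, which encodes SREBP1, at -1.86, -0.49 and -0.66. ELOVL1, an elongase of very long fatty acids, went the other way at 0.62, 0.42 and 0.32. With a trend on gene length removed, as described below, the medians were -0.76, -0.65 and -0.47 for cholesterol synthesis and -0.82, -0.67 and -0.18 for fatty acid synthesis.

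The promoters of the lipid genes that passed are shown because these genes moved together and share regulators. RefSeq (build GRCh38.p14) gave 1 promoter window of 300 bases around the gene's start, most of it upstream, for 3 of these 4 genes. FADS2 had 2 windows and is not shown. Capitals mark matches to the CCAAT box, bound by the factor NF-Y, searched as CCAAT and as ATTGG on the other strand. The windows were chr7:155297628-155297927 (plus strand) for INSIG1, chr10:100346983-100347282 (plus strand) for SCD and chr21:46228725-46229024 (minus strand) for LSS.
INSIG1: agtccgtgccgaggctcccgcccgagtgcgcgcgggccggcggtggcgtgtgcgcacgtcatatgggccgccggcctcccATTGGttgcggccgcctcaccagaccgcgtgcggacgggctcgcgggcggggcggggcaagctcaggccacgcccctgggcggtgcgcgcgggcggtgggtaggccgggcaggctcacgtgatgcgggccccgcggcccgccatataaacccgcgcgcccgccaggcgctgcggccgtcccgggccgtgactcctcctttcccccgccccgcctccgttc
SCD: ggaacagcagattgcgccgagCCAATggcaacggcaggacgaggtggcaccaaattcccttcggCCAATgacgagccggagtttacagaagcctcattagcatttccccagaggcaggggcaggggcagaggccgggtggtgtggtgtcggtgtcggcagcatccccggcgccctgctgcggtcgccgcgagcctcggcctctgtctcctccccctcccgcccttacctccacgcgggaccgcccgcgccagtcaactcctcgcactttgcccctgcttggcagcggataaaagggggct
LSS: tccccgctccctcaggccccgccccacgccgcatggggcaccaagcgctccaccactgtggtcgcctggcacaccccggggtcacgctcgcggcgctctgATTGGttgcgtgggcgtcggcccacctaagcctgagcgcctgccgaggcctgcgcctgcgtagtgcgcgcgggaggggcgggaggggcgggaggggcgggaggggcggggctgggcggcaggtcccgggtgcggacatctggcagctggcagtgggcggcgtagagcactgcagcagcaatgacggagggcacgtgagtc

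INSIG1 and LSS held 1 CCAAT match each and SCD held 2. Over all 35116 promoter windows 34.6% held a CCAAT match, as did 13 of 17 windows of the cholesterol list and 9 of 15 of the fatty acid list. A sterol element, searched as TCACNCCAC and GTGGNGTGA, was in 1.13% of all windows and in 0 of these 17 and 15. A match is a run of letters and not a shown binding site.

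IKZF1 (Ikaros), a factor of lymphoid identity, was at 8.80 (siMLL/AF4), 9.48 (siCtrl) and 9.11 (MOCK) on day 4, against 9.92, 10.65 and 9.97 on day 2. Its groups did not overlap, and its change was -1.05 ± 0.22 (SE, limma, adjusted p = 0.0323). ATF2, a stress-responsive transcription factor, fell by 0.88, 1.19 and 1.40 on the log2 scale. RB1, the retinoblastoma protein that restrains S phase entry, fell by 0.89, 1.12 and 0.83, TMED10, a cargo receptor between endoplasmic reticulum and Golgi, by 1.16, 1.08 and 0.86, and ACO1, the iron-sensing aconitase, by 1.14, 0.80 and 0.98. The other lower genes of the named set were MANEA, a mannosidase, and TRHDE, a peptidase that inactivates thyrotropin-releasing hormone. PHKB, a subunit of phosphorylase kinase, and DHX9, an RNA helicase, passed at their brightest probe. Of 3 further PHKB probes one changed by -1.11, -1.05 and -0.98 and another by 0.48, -0.40 and 0.12. The brighter of the further DHX9 probes changed by -0.75, -0.37 and -0.52, and a dim one by 0.17, -0.26 and 2.30. SPRY4 was at 5.54, 7.68 and 7.43 on day 4, against 7.33, 8.52 and 8.80 on day 2 (change -1.33 ± 0.23 SE, limma, adjusted p = 0.0259). GTF2I also passed as lower and has near-identical copies in the genome. POLD1, a subunit of the replicative polymerase, UHRF1, which maintains DNA methylation, RRM2B, a ribonucleotide reductase subunit under p53, and REEP3, listed as an MLL/AF4 target, also fell. The day 4 and day 2 groups overlapped for ATF2, RB1, TRHDE, SPRY4 and RRM2B.

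Among 22 proteasome subunits tested, 15 were higher under all 3 treatments, 0 lower and 0 passed (limma, with 1.37% of all genes passing). Their medians were 0.66 (siMLL/AF4), 0.30 (siCtrl) and 0.17 (MOCK), and 0.56, 0.17 and 0.18 with the length trend removed. PSMA2 stood at 8.57, 7.90 and 8.18 on day 4, against 7.80, 7.04 and 7.36 on day 2, with a change of 0.82 ± 0.21 (SE, limma, adjusted p = 0.0588) and no overlap. Of 30 mitosis genes 14 were higher under all 3 and 4 lower, with medians of 0.22, 0.25 and 0.27 (0.32, 0.12 and 0.22 with the length trend removed), and CCNB1 alone passed. NEK2, a centrosome kinase, had changes of 0.47, 0.94 and 0.87, and CDC20, an activator of the anaphase-promoting complex, of 0.44, 0.72 and 0.34. Of 7 MHC class II genes 4 were higher under all 3 and 0 passed, with HLA-DMB, which loads peptides, at 0.63, 0.98 and 0.60. All 3 metallothioneins tested were higher under all treatments, with MT1F passing. The MLL/AF4 target list had medians of -0.44, -0.22 and -0.12, and of -0.089, -0.023 and -0.0083 with the trend on gene length removed. Of its 19 members 10 were lower, 2 higher, and REEP3 alone passed. CCNA1, a germ cell cyclin in that list, was higher by 0.70, 0.76 and 0.91 (limma, adjusted p = 0.0642).

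**Figure D2:**
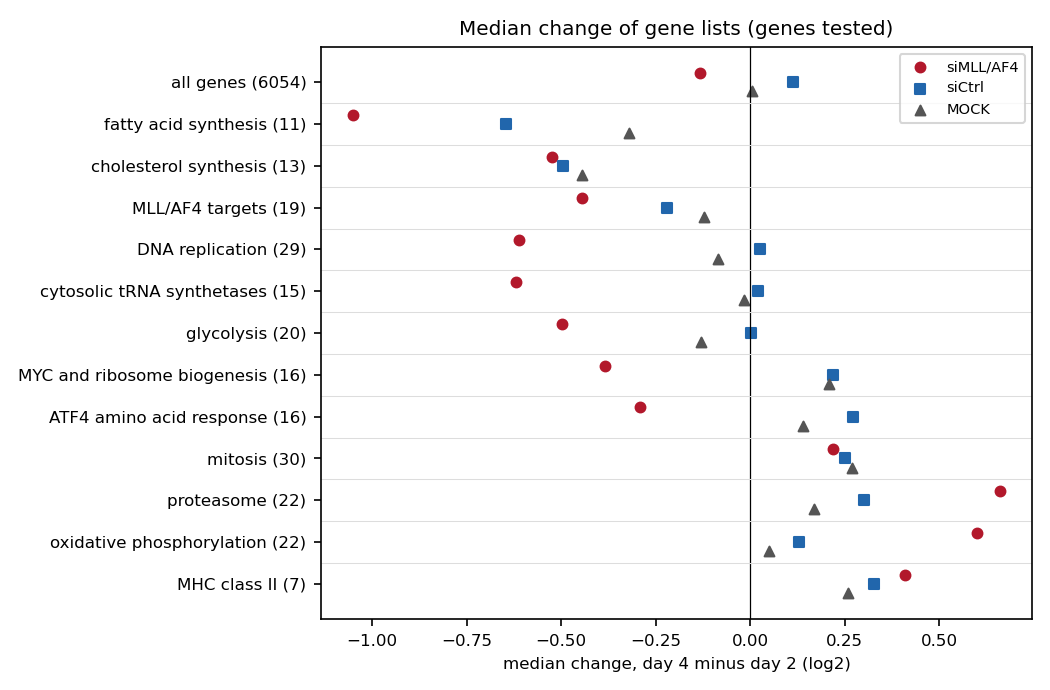
Median change, day 4 minus day 2 (log2, horizontal axis), of all 6054 genes and of 12 gene lists (number of genes tested in brackets), for siMLL/AF4 (red circles), siCtrl (blue squares) and MOCK (grey triangles). The lipid synthesis lists lie below 0 and the proteasome list above 0 under each treatment, whereas DNA replication, tRNA synthetases and glycolysis lie well below 0 with siMLL/AF4 and near 0 in the controls.

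The size of the change differed between treatments. With siMLL/AF4, 754 genes (12.5%) changed at least 2-fold, against 374 (6.18%) with siCtrl and 51 (0.842%) in MOCK, with 8.24% higher and 4.21% lower for siMLL/AF4, 1.75% and 4.43% for siCtrl, and 0.215% and 0.628% for MOCK. The SD of the change across genes was 0.675, 0.539 and 0.322. These single pairs have no replicate and were not tested. Of the 23 genes higher in all treatments, 18 changed least in MOCK, as did 35 of the 60 lower ones. Changes in MOCK were small over all genes too, with a median absolute change of 0.186, against 0.343 with siCtrl and 0.458 with siMLL/AF4. The share of all genes that changed least in MOCK was not counted, so these counts are not read as a trait of the called genes. Across genes, which are not independent replicates, the changes correlated by Pearson 0.390 between siMLL/AF4 and siCtrl, 0.384 between siMLL/AF4 and MOCK and 0.413 between siCtrl and MOCK. Ranked on a log2(value + 64) scale, which damps dim genes, the changes in MOCK were largest upward for CCNB1, GNG11 and CA2 and downward for RN7SK, NOMO3 and IGLL1. On the plain log2 scale CTSO (1.17) lay above CA2 (1.14), and RIMBP3 (-2.07) below IGLL1 (-1.65).

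The count of genes that passed was largest with siMLL/AF4 set apart. Against the changes in siCtrl and MOCK, 167 genes passed (limma, 2.76%), 144 higher (2.38%) and 23 lower (0.38%). Of the 144, 143 were higher on day 4 with siMLL/AF4, with a median change of 1.72, against 0.14 with siCtrl and 0.088 in MOCK, and in 136 of them the siMLL/AF4 array of day 2 was the lowest of the 6. Over all genes that array was the lowest in 18.8%. A low value on that array itself raises the tested difference, so the call favours such genes and the count is not separate evidence. The 23 had median changes of -1.25 with siMLL/AF4, 0.50 with siCtrl and 0.16 in MOCK. This fit left 1 residual degree of freedom, so the test leans on the spread pooled over genes, and 1 array of day 2 or day 4 with siMLL/AF4 can set a call. With siCtrl set apart 6 genes passed (limma, 0.0991%), 1 higher (0.0165%) and 5 lower (0.0826%), and with MOCK set apart 0 (limma, 0%), where 102 genes had an unadjusted p under 0.05. These fits use the same 6 arrays and are not separate evidence. With siCtrl or MOCK apart the spread was pooled over all genes. For GNG11 the SE of the difference was 0.543 with siCtrl apart, against 0.406 with siMLL/AF4 apart. The counts therefore do not compare the treatments on 1 scale. In MOCK the genes farthest apart, none of which passed, included SPTBN1, a spectrin of the membrane skeleton, at -1.52 (siMLL/AF4), -1.47 (siCtrl) and 0.029 (MOCK), and DMC1, a meiotic recombinase, at 1.71, 1.14 and -0.11. The brighter of the further SPTBN1 probes changed by -1.37, -1.34 and -0.34, and a dim one by -2.15, 2.67 and -0.98. A second DMC1 probe, at -0.091, 0.62 and 0.36, did not set MOCK apart. With limma 0 genes passed for siMLL/AF4 apart without the filter on dim genes (670 at an unadjusted p under 0.05) or with missing values at the lowest value (630 unadjusted), and averaging the probes of a gene left 16.

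**Figure D3:**
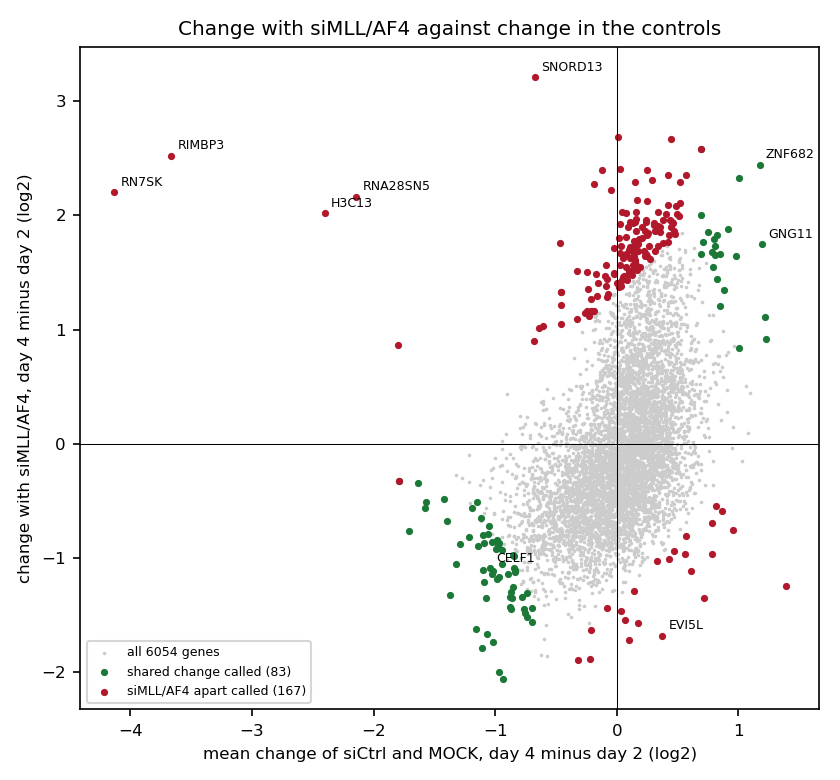
Change with siMLL/AF4 (log2, vertical axis) against the mean change of siCtrl and MOCK (log2, horizontal axis), day 4 minus day 2, for 6054 genes (grey), the 83 genes of the shared change (green) and the 167 genes in which siMLL/AF4 stood apart (red). Most red points lie at 1 to 2.5 with siMLL/AF4 and near 0 in the controls, and RN7SK, RIMBP3, RNA28SN5 and H3C13 lie far to the left.

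Of the 5 genes named as farthest apart upward, RN7SK, RNA28SN5, H3C13 and SNORD13 give RNAs that mostly lack a poly(A) tail, and RIMBP3 is protein-coding. RN7SK, the 7SK RNA that restrains the elongation factor P-TEFb, was at 13.17 (siMLL/AF4), 9.80 (siCtrl) and 9.62 (MOCK) on day 4, against 10.97, 15.11 and 12.58 on day 2. It was thus higher on day 4 with siMLL/AF4 and lower in both controls, and siMLL/AF4 stood apart by 6.34 ± 0.46 (SE, limma, adjusted p = 1.37e-20). The SE and p-value lean on the spread pooled over genes and do not give the precision of this gene. Its control changes lay far apart, at -5.31 (siCtrl) and -2.96 (MOCK). A second RN7SK probe changed by 3.56, -8.49 and -4.25. RNA28SN5, a 28S ribosomal RNA, changed by 2.17 with siMLL/AF4, -3.48 with siCtrl and -0.81 in MOCK, H3C13, a histone H3 gene, by 2.02, -3.35 and -1.46, and SNORD13, a small nucleolar RNA, by 3.21, -1.42 and 0.076. RIMBP3, a gene with near-identical copies, changed by 2.52, -5.26 and -2.07. These 5 genes also passed with siCtrl set apart, where each was lower. A second H3C13 probe, which is dim, changed by -0.32, 0.036 and -1.34. D2HGDH, a mitochondrial dehydrogenase, was the sixth, at 7.18, 8.62 and 8.65 on day 4, against 8.43, 6.30 and 8.19 on day 2, and its siCtrl change stood 2.72 above the others. ZFP36, which speeds mRNA decay, and ZYX, a focal adhesion protein, were the next most raised on day 4 in the siCtrl pair, at 1.92 and 1.54, and did not pass with siCtrl set apart. A second ZYX probe was not raised with siCtrl, with changes of 0.29 (siMLL/AF4), -0.44 (siCtrl) and -0.037 (MOCK).

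Most histone genes were higher on day 4 with siMLL/AF4 and lower with siCtrl, but in MOCK most were higher, by a rule made after the values were seen. Of 28 histone genes with a value on all arrays, 24 were higher on day 4 with siMLL/AF4, 2 with siCtrl and 17 in MOCK, and the medians were 1.35, -2.05 and 0.16. A separate histone list, made without that rule, had 3 genes bright enough to test. H2BC12 changed by 1.20 (siMLL/AF4), 0.89 (siCtrl) and 0.24 (MOCK), and H4C3 by 0.58, -0.18 and -0.091. H2AZ1, a variant histone that is not replication-dependent, changed by -0.25, 0.13 and 0.14. Of the 28 histone genes, the siCtrl array of day 2 was the highest of the 6 in 22, against 18.8% of all 10246 genes with a value. In 21 of the 28 siMLL/AF4 was the lowest of the day 2 arrays, against 25.8% of all genes. For 5 ribosomal and small nuclear or cytoplasmic RNAs the medians were 2.21, -3.43 and -0.81. For 36 small nucleolar RNAs they were 0.73, 0.27 and 0.11. Most of these genes were dim, as 5, 3 and 9 of them reached the level for the test. How the RNA was primed for labelling is not given in the sources used here, and the part of such RNAs in the other results was not tested.

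**Figure D4:**
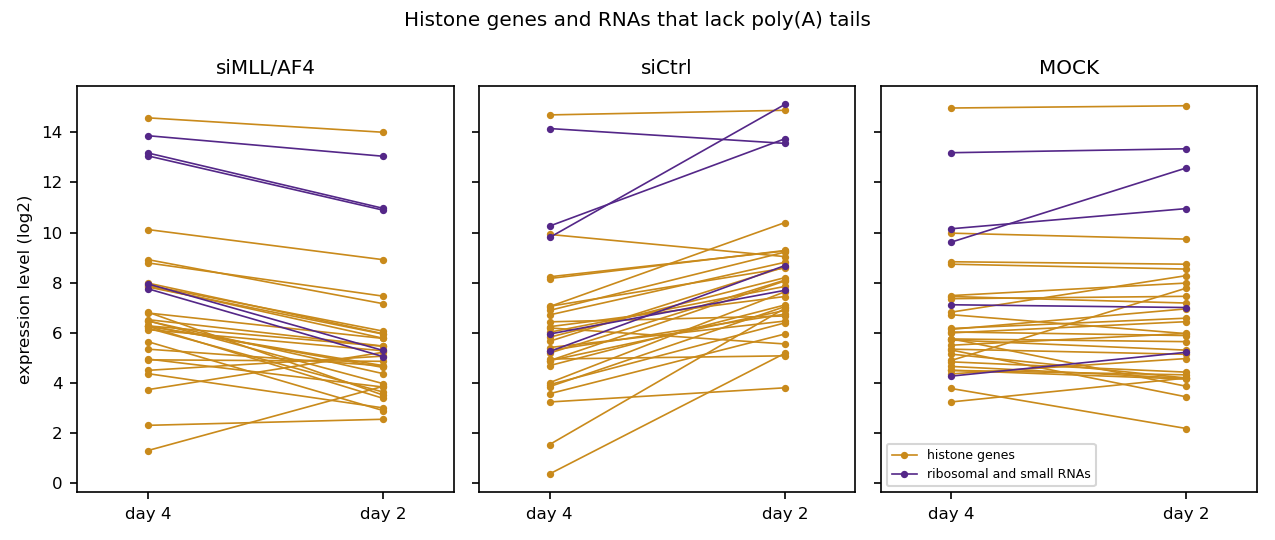
Expression level (log2, vertical axis) on day 4 (left) and day 2 (right) of 28 histone genes (gold) and 5 ribosomal and small RNAs (purple), 1 panel a treatment and 1 array a day. Most lines are higher on day 4 with siMLL/AF4, lower on day 4 with siCtrl and nearly level in MOCK.

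Protein-coding genes of several roles stood apart with siMLL/AF4 as well. RPS28, a ribosomal protein, was at 12.98 (siMLL/AF4), 12.20 (siCtrl) and 12.41 (MOCK) on day 4, against 10.70, 12.74 and 12.25 on day 2 (difference of changes 2.47 ± 0.41 SE, limma, adjusted p = 2.29e-05). Of 21 cytosolic ribosomal proteins in the list 16 changed more upward with siMLL/AF4 than in both controls, and RPL23 and RPL7 passed. Of 22 respiratory chain and ATP synthase genes 13 did so, with medians of 0.60, 0.13 and 0.051. With the length trend removed the medians were 0.34, -0.020 and 0.0086 for these genes, and 0.11, -0.41 and -0.0040 for the ribosomal proteins, against 0.35, -0.17 and 0.075 before. Over all genes the share was 30.1%. IGLL1, of the surrogate light chain of the pre-B-cell receptor, was at 9.89, 7.37 and 8.56 on day 4, against 9.02, 9.32 and 10.21 on day 2 (difference 2.66 ± 0.41 SE, limma, adjusted p = 2.70e-06), and its partner VPREB1 passed too. MT2A, a metallothionein, changed by 1.95, 0.29 and 0.19, and ZMAT3, a p53 target, by 1.67, 0.20 and -0.14. PROM1 (CD133), a progenitor surface protein and MLL/AF4 target, was at 12.61, 14.39 and 13.91 on day 4, against 14.05, 14.54 and 13.93 on day 2 (difference -1.36 ± 0.41 SE, limma, adjusted p = 0.0456). CSF1R, a myeloid growth factor receptor, changed by -0.76, 1.22 and 0.69. The 5 lowest by the naming rule were EVI5L, SLC25A22, IDH3A, D2HGDH and SNX6, with differences from -2.63 to -1.66. Of these, SLC25A22 carries glutamate into mitochondria, and IDH3A belongs to the citric acid cycle.

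In several lists most members had a lower change with siMLL/AF4 than in both controls. In the test with siMLL/AF4 apart PROM1 passed as lower and CALR as higher. PROM1 is in the lists of MLL/AF4 targets and of stem and progenitor genes, CALR in that of the unfolded protein response. The other lists given here had 0 members past this test (limma, with 957 of all genes at an unadjusted p under 0.05). The share of all genes whose change lay below both others was 44.9%. It was 22 of 29 for DNA replication, with medians of -0.61 (siMLL/AF4), 0.025 (siCtrl) and -0.084 (MOCK), and 14 of 15 for cytosolic tRNA synthetases, with -0.62, 0.022 and -0.017. It was 14 of 20 for glycolysis, with -0.50, 0.0021 and -0.13, and 11 of 16 for the ATF4 amino acid response, with -0.29, 0.27 and 0.14. For MYC and ribosome biogenesis it was 10 of 16, with -0.38, 0.22 and 0.21. It was also 8 of 11 for fatty acid synthesis, 8 of 13 for cholesterol synthesis, 9 of 14 for heat shock, 4 of 5 for the hypoxia response, 6 of 11 for NRF2 targets and 2 of 3 for NF-kB targets. For MLL/AF4 targets it was 10 of 19, for stem and progenitor genes 4 of 7 and for the unfolded protein response 7 of 13. With the length trend removed the siMLL/AF4 medians were -0.42 for DNA replication, -0.45 for tRNA synthetases, -0.54 for glycolysis, -0.17 for the ATF4 response and -0.37 for MYC and ribosome biogenesis. MCM4, a helicase subunit, was at 11.80, 12.21 and 12.01 on day 4, against 13.16, 13.04 and 12.48 on day 2. AARS1, the alanyl-tRNA synthetase, changed by -1.11, -0.34 and -0.22, and NOLC1, a nucleolar chaperone, by -1.15, 0.062 and -0.19. MYC changed by -0.78, 0.23 and -0.19.

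The changes also varied with gene length. Spearman's correlation across 6053 genes between the change and the span of the gene in the genome (RefSeq) was -0.357 with siMLL/AF4, -0.311 with siCtrl and -0.226 in MOCK. Among the 1211 shortest genes, up to 9249 bases, the median changes were 0.34, 0.25 and 0.073, and among the 1211 longest, from 79148 bases, they were -0.37, -0.22 and -0.11. The median span was 19849 bases for the 23 genes higher in all treatments and 68565 for the 60 lower ones, 8675 for the 144 genes higher with siMLL/AF4 apart and 34759 for the 23 lower ones, against 28341 for all genes. Removing a smooth trend on span from each array, a step chosen after seeing the data, left 0 shared calls (limma, smallest adjusted p = 0.184, 1086 genes at an unadjusted p under 0.05) and 0 calls for siMLL/AF4 apart (limma, smallest adjusted p = 0.0721, 848 unadjusted). All 83 shared changes kept their sign, and 79 stayed within 1.5 times of the value without this step, at 1.21 for GNG11, 1.68 for ZNF682, -1.42 for INSIG1, -1.32 for SCD, -1.20 for LSS and -1.42 for SPRY4, while the median degrees of freedom behind the shared test were 8.89, against 18.0 without this step. The other 4 shrank by more, among them FTH1P3, to 0.74 against 1.12 without this step. Of the 167 differences for siMLL/AF4 apart all kept their sign and 152 stayed within 1.5 times, with 5.44 for RN7SK and 2.65 for SNORD13. MT2A, at 1.09 against 1.70 without this step, was among the 15 that shrank by more.

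**Figure D5:**
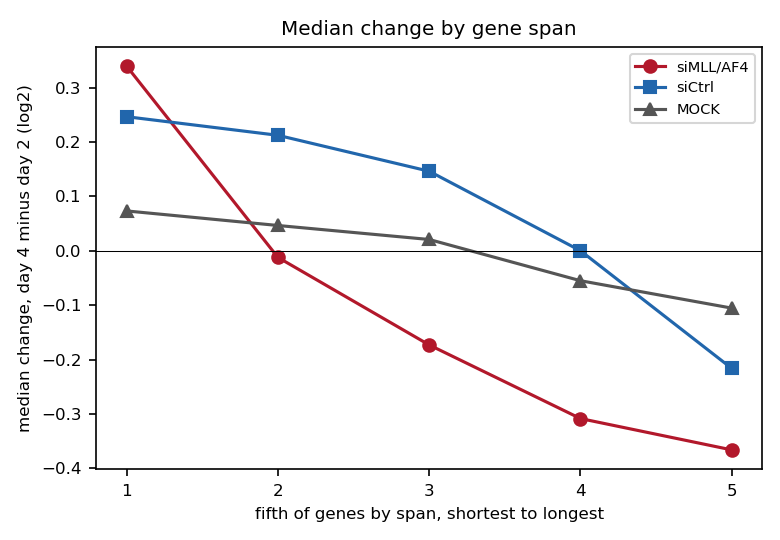
Median change, day 4 minus day 2 (log2, vertical axis), of the 6053 genes in 5 bins of equal size by span in the genome (horizontal axis, shortest left), for siMLL/AF4 (red circles), siCtrl (blue squares) and MOCK (grey triangles). Under each treatment the median falls from short to long genes, most with siMLL/AF4 and least in MOCK.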

How the data were processed

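Labelled RNA of SEM cells was measured on Illumina bead arrays. The submitters' processing notes name GenomeStudio without a version, and no source used here states the background correction or the normalization. Deposited values are natural log intensities as far as the numbers tell: the brightest probe is 38664 on the linear scale as base e and 1512 as base 2. They were used as normalized by the authors and converted to log2. Between 28.5% and 28.7% of the 39421 probes per array are Null, which was treated as missing. All columns mapped to a sample (0 unmapped). The platform annotation gave 27210 probes 1 gene symbol, 8 several, and 12203 are not listed in it. Symbols were updated through Entrez identifiers, in which 27177 probes matched.

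Each gene was represented by its brightest probe among those present on all 6 arrays, and was kept if that probe's mean reached the median of such probes, 7.53 on the log2 scale. Dim genes, and probes measured on 1 day, were therefore not tested. Tests used limma 3.58.1 in R 4.3.3 (lmFit, eBayes, two-sided), with Benjamini-Hochberg adjusted p-values over 6054 genes. The shared model held treatment and day (2 residual degrees of freedom), and further models added the product of day and 1 treatment. The pairing comes from the treatment labels. The deviations of a treatment's 2 arrays from their day means correlated across genes by 0.218 for siMLL/AF4, 0.463 for siCtrl and 0.703 for MOCK.

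The 38 gene lists, the naming rule and the comparison were chosen with earlier results of these data known. The rule names genes that pass, filled to 12 higher and 12 lower by the largest smallest change over treatments on a log2(value + 64) scale, then 5 each way per treatment apart, up to 6 members per list, the KMT2A and AFF1 probes and 3 each way per single treatment. Genes outside it are named as picked after their values were seen, and the 16 genes that passed without any 1 treatment are such a set. The alternatives are given in the closing section. The shared model and the model with siMLL/AF4 apart were run on simulated data, with the spread drawn from the limma fit itself. The models with siCtrl or MOCK apart were not simulated. Figures used matplotlib 3.10.9.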

Additional observations from a re-analysis of the deposited data

Results flagged for a closer look

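The change of 1 treatment differed from the changes of the others, by a limma test of the difference, for 167 genes with siMLL/AF4 and 6 genes with siCtrl. With siMLL/AF4 set against the controls, the largest positive differences named were 6.34 for RN7SK, 6.19 for RIMBP3, 4.42 for H3C13, 4.31 for RNA28SN5 and 3.89 for SNORD13. The negative ones were -2.63 for D2HGDH, -2.06 for SLC25A22, -2.05 for EVI5L, -1.82 for IDH3A and -1.66 for SNX6. With siCtrl set apart the differences were 2.72 for D2HGDH, -5.49 for RIMBP3, -4.93 for RN7SK, -4.16 for RNA28SN5, -3.63 for H3C13 and -3.07 for SNORD13. All are on the log2 scale, rest on 1 pair of arrays per treatment, and share arrays between the tests.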

How the results depend on the processing

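The count of genes in the shared change was 83 to 136 under quantile normalization, a common median, offsets of 16 or 64, a floor, values read as base 2 logs and a trended robust variance, with 136 at the offset of 64. Of these, the reading as base 2 could not change the count, and the floor left it at 83. Quantile normalization (83) and a common median (84) had little to change, as the arrays already had near-equal medians and the same extremes. The count was 32 with a filter at the 70th percentile and 35 with probes averaged. Leaving out 1 pair gave 84 (without siCtrl) to 222 (without siMLL/AF4), with 197 without MOCK. The count was 0 without the filter on the mean, with missing values at the lowest value, with the gene span trend removed and with no replicate block, that is without pairing the arrays by treatment (475 genes there at an unadjusted p under 0.05, limma). For siMLL/AF4 apart it was 16 with probes averaged, 328 with the trended robust variance, and 0 without the filter, with missing values at the lowest value or with the span trend removed. For siCtrl apart it was 3 at the 70th percentile and 0 without the filter (550 unadjusted) or with missing values at the lowest value (653 unadjusted). For MOCK apart it was 0 (limma) under each alternative run, with 50 to 597 genes at an unadjusted p under 0.05. Genes changed at least 2-fold in all 3 treatments numbered 3, against 1 at the offset of 16, 0 at the offset of 64, at the 70th percentile or read as base 2, 57 without the filter and 121 with missing values at the lowest value. The causes were not tested. The filter at the 70th percentile left 3784 genes to test, of which 164 passed for siMLL/AF4 apart. Of the 24 genes named for the shared change and 10 for each treatment apart, 0 changed direction under the alternatives that gave them a value. For a reading as base 2 no other outcome was possible. The same holds for the 24 shared genes without the treatment block and under the offsets and the floor, which keep the order within each pair. The trended robust variance altered only the spread, and the other filters kept the same probe, so neither could change a direction. Leaving out 1 pair could not do so for the 24 shared genes, which had 1 sign in all 3 treatments. Removing the span trend moved 8 of 37 list medians. No measure of signal over background was used here, so its limit on dim genes was not tested.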

Other observations

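There were 260 probes with a value on all day 4 arrays and none on day 2, and 270 the other way round. The brightest of them averaged 5.01 on day 4 and 5.62 on day 2 on the log2 scale, and 0 reached the level needed for the test.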
